A study of Mus musculus with 4 samples.

Results

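The PD1+ CD8 T cells are 1 of the 17 groups that the study's annotation gives to T cells sorted from mouse colorectal tumors and from the cecum beside them. Members were the cells with that label in the deposited metadata, 499 in the cecum library and 1180 in the tumor library, 1679 of the 15621 labelled cells in all. Their chromatin was measured with the ATAC part of a 10x multiome assay, which cuts open DNA in the same nuclei whose RNA is read, and each nucleus was followed by its barcode. The mice carried AKP organoids, intestinal organoids whose engineered alleles include Apc-/- and Trp53-/-, and tumor and cecum were taken 4 weeks after transplantation. The cecum was therefore normal tissue adjacent to a tumor and no tumor-free animal was analysed here. Each tissue had 1 library, and the number, age and genotype of the mice behind a library are not given in the sources used here. The labels came from the RNA of the same nuclei, which was not analysed here, so the accessibility described below was not itself used to label the cells. Cells had, however, been kept by the authors only if their ATAC fragments and enrichment at gene starts passed set limits.

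CD8 T cells kill infected or malignant cells by releasing granzymes and perforin and by secreting interferon gamma. After continued stimulation through the T cell receptor many of them display PD-1, an inhibitory receptor encoded by Pdcd1, and express Tox, a nuclear factor tied to the exhausted state. Exhausted CD8 cells are commonly divided into a stem-like pool, which keeps Tcf7, Slamf6 and lymph node homing genes, and terminally differentiated cells with more inhibitory receptors. The study described the PD1+ CD8 cluster as terminally differentiated, with high Pdcd1 and low Gzmb RNA, and the Cytotoxic CD8 cluster as effector cells rich in granzyme RNA. Cytotoxic CD8 cells (504 in cecum and 467 in tumor) were therefore the main reference, each compared within its own library. The other CD8 labels were CCR7+ CD8, whose label names a naive and memory homing receptor, and CD8aa, a label of cells with the CD8 alpha homodimer that is typical of the gut epithelium.

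PD1+ CD8 cells were 6.97% of the labelled cells of the cecum (exact 95% interval 6.39 to 7.59) and 13.9% of those of the tumor (13.2 to 14.7). Among the 4 CD8 labels they made up 32.0% in cecum and 52.3% in the tumor. All intervals given here cover counting error only, and with 1 library per tissue no difference was tested. The label held 3602160 fragments in cecum and 9148760 in tumor, against 3388341 and 3754731 in Cytotoxic CD8. The median PD1+ CD8 cell had 5322 and 6359.5 fragments, the median Cytotoxic CD8 cell 4674 and 6739. The share of fragments near gene starts was 39.5% and 39.8% in PD1+ CD8 and 41.1% and 40.9% in Cytotoxic CD8, the lowest of the 16 labels of cecum and the 14th of 17 in tumor. Fragments too short to span a nucleosome made up 42.3% and 45.8% in PD1+ CD8 and 43.9% and 46.8% in Cytotoxic CD8, rank 16 of the labels for PD1+ CD8 in both, and the part of fragment length in the results was not tested. In the cecum 17.8% of the PD1+ CD8 cells had more than 3 times the median fragment count of all labelled cells of that library, against 9.58% in the tumor. Of the labelled cells, 84 carried a barcode that was labelled in both libraries, and 1 barcode was labelled PD1+ CD8 in both.

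Markers of other cell types were summed per label as fragments per 1000000 fragments of the label (FPM), counted over the gene span with 5 kb on both sides. The 10 markers of other T cell lineages summed to 591 FPM in cecum and 581 FPM in tumor, the lowest of the 16 and 17 labels with at least 50 cells. The 6 B cell markers summed to 149 and 144 FPM (127 and 134 in Cytotoxic CD8), within the range of the labels, 118 to 208 and 122 to 193. The 10 epithelial markers summed to 169 and 171 FPM (189 and 179 in Cytotoxic CD8). The 6 myeloid markers summed to 141 and 152 FPM, the highest of the labels in both libraries, against 107 and 112 in Cytotoxic CD8. Itgam, an integrin that some activated T cells also carry, supplied 74.1 and 79.1 FPM of that sum. No marker of these lists was at 0 in PD1+ CD8 or Cytotoxic CD8, and the part of the myeloid signal in the results was not tested.

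Promoter sequences are shown for 4 genes on which the comparison turns: Pdcd1, which names the label, Eomes and Myb, both more open in PD1+ CD8, and Csf2, less open. Each is the 250 bases before the start of the gene in the RefSeq table of GRCm38.p6, written in the direction of transcription, with the bases of any motif match in capitals.
Pdcd1 (chr1:94052554-94052803, minus strand): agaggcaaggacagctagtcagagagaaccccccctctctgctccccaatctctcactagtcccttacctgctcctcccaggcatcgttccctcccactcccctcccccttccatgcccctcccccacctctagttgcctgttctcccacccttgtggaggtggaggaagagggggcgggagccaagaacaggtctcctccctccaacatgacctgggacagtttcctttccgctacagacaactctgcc
Eomes (chr9:118477939-118478188, plus strand): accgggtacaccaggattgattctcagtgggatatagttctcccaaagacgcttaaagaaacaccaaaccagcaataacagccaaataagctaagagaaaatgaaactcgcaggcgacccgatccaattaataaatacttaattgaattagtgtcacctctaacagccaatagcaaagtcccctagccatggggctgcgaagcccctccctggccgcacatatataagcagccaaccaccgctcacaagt
Myb (chr10:21160985-21161234, minus strand): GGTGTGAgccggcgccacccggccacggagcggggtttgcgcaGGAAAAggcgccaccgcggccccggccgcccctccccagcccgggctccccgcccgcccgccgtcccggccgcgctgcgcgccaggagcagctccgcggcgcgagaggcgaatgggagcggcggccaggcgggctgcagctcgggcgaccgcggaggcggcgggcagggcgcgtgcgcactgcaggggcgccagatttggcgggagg
Csf2 (chr11:54249900-54250149, minus strand): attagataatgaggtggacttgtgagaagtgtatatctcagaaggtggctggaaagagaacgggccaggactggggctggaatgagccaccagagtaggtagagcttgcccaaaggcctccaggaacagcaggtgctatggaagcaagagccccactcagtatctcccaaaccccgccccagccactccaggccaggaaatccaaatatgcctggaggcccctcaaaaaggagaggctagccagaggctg
The capitals in Myb mark a match to the T-box letters TCACACC on the opposite strand, 250 bases before the start, and to the NFAT letters GGAAAA, 207 bases before it. Both strands were searched for 7 motifs, the others being AP-1 (TGANTCA), RUNX (TGTGGT), TCF/LEF (CTTTGAT), NR4A (AAAGGTCA) and KLF (GGGTGTG). Over the 32851 promoters of the table, windows of the same length held the T-box letters in 3.33% and the NFAT letters in 20.4%. The windows of Pdcd1, Eomes and Csf2 held none of the 7. A match describes letters in the window and not a bound site. Within 1 kb of the start Eomes had 113 fragments in PD1+ CD8 and 43 in Cytotoxic CD8 in cecum, and 279 and 46 in tumor, a log2 ratio of 1.31 and 1.32. Myb had 81 and 39 there in cecum and 218 and 59 in tumor (log2 ratio 0.97 and 0.60). Pdcd1 had 76 and 40 in cecum and 216 and 62 in tumor, a log2 ratio of 0.84 (0.27 to 1.43) and 0.52 (0.10 to 0.95). Csf2 had 8 and 34 in cecum and 19 and 46 in tumor, a log2 ratio of -2.18 and -2.56.

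The label was first checked against its markers Cd8a, Pdcd1, Ifng and Tox across all labels. Cd8a, the alpha chain of the CD8 coreceptor, was at 95.5 FPM in cecum and 89.96 FPM in the tumor, the first of the labels in both. Cytotoxic CD8 came next with 95.3 and 86.6 FPM, a difference within counting error (log2 ratio 0.00, -0.22 to 0.23, and 0.06, -0.13 to 0.25). The CD4 and helper T cell labels, which should lack CD8, lay between 4.00 FPM in IL10- Treg and 21.1 FPM in newly activated CD4 of cecum, and between 2.56 FPM in Th17 and 22.3 FPM in PD1+ CD4 of the tumor. Ifng, which encodes interferon gamma, was also first in both libraries, at 48.6 and 53.6 FPM, closely followed by Mucosal Th1 with 45.7 FPM in cecum and Cytotoxic CD8 with 48.7 FPM in the tumor. The log2 ratio over Cytotoxic CD8 was 0.10 (-0.22 to 0.42) and 0.14 (-0.11 to 0.39), so the order of these labels was within counting error. CCR7+ CD8 cells had 9.4 and 11.3 FPM over Ifng.

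Pdcd1 was at 165.5 FPM in PD1+ CD8 of cecum and 180.2 FPM in the tumor, above the other CD8 labels in both. Cytotoxic CD8 had 92.7 and 132.9 FPM, CCR7+ CD8 102 and 108 FPM, and CD8aa 61.3 and 76.3 FPM. Over all labels PD1+ CD8 held only rank 5 of 16 in cecum and rank 6 of 17 in tumor, below Rorgt gdT (191.5 and 241.3 FPM), Tfh-like (196.5 and 190.8) and Innate-like T#2 cells (196.1 and 190.0). In the tumor PD1+ CD4 cells had 229.7 FPM. The log2 ratio over Cytotoxic CD8 was 0.84 (0.64 to 1.04, 596 against 314 fragments) in cecum and 0.44 (0.29 to 0.59, 1649 against 499) in the tumor. Only the first passed 1.5-fold. Tox was at 253.5 and 282.3 FPM, rank 7 of 16 and rank 6 of 17, against 179.7 and 182.2 FPM in Cytotoxic CD8, a log2 ratio of 0.50 (0.35 to 0.65) and 0.63 (0.51 to 0.76). The other CD8 labels were closer, CCR7+ CD8 with 240 and 234 FPM and CD8aa with 234 and 257 FPM, and IL10- Treg cells had more, 496.5 and 400.5 FPM. Within 1 kb of the start Tox held rank 13 (cecum) and 8 (tumor), while Pdcd1 held rank 2 and 3.

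**Figure D1:**
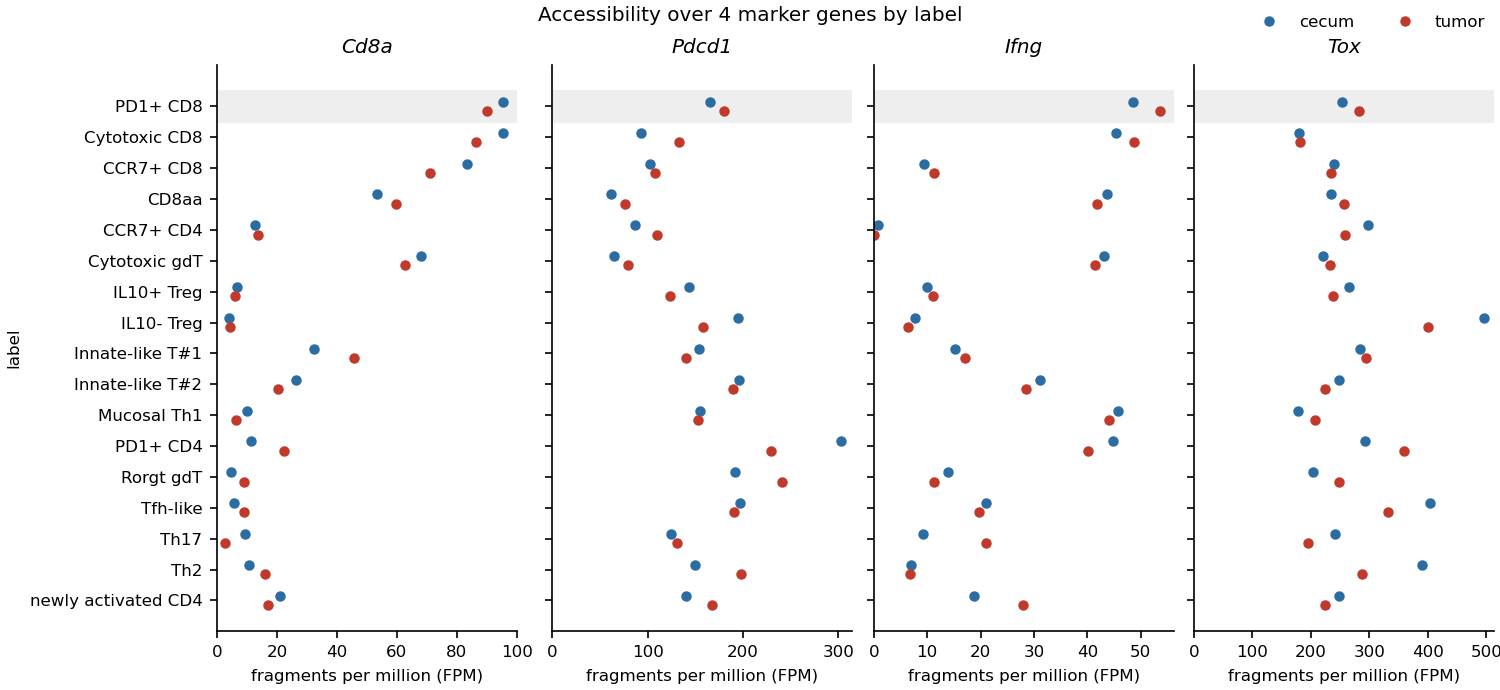
Fragments per 1000000 fragments of the label (FPM) over Cd8a, Pdcd1, Ifng and Tox (x axes, from 0), with a row for each label and a point for each library, cecum in blue and tumor in red. PD1+ CD8, in the grey band, is at 95.5 and 89.96 FPM for Cd8a, level with Cytotoxic CD8. For Pdcd1 PD1+ CD8 is at 165.5 and 180.2 FPM, above the other CD8 labels. Some CD4 labels and Rorgt gdT, but not Cytotoxic gdT, lie above PD1+ CD8 for Pdcd1. PD1+ CD4 has 14 cells in the cecum.

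Pdcd1 was also read in single cells. After each cell was thinned to 2000 fragments, 27.3% of the 381 PD1+ CD8 cells of cecum and 26.6% of the 946 of the tumor had a fragment over Pdcd1, against 15.4% and 18.8% of Cytotoxic CD8. In Mucosal Th1, a CD4 label, the share was 28.5% and 20.9%. Without thinning it was 52.9% and 57.9% of PD1+ CD8. For Cd8a the thinned share was 20.5% and 16.8% in PD1+ CD8, 18.7% and 16.8% in Cytotoxic CD8 and 1.084% and 2.03% in Mucosal Th1, where it stands for the background of the assay. Thinning left out 118 and 234 PD1+ CD8 cells with fewer fragments.

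Across genes, 14442 had at least 50 fragments over both labels in each library. Of these, 261 were at least 1.5-fold higher in PD1+ CD8 than in Cytotoxic CD8 in both libraries (1.81%) and 101 were lower (0.699%), on the log2 scale with a pseudocount of 1 FPM. With windows of 1 kb around gene starts 87 of 10189 tested genes were higher and 43 lower, and scaling to the fragments near gene starts gave 306 higher and 84 lower. The first shares are the background for the gene lists below, and a gene past the fold in both libraries is called higher or lower. The cecum and tumor log2 ratios were correlated across genes with Pearson's r = 0.538 and Spearman's rho = 0.418, over windows that partly overlap and are not independent, and 64.0% of genes had the same sign. Of the 611 genes past the fold upward in the cecum, 526 had the same sign in the tumor (86.1%), and of the 272 past it downward 222 did (81.6%).

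The list with medians farthest from 0 was that of naive, memory and stem-like genes, of which 6 of 16 were higher, 1 was lower and 12 were above 0 in both libraries. Of all 14442 genes tested, 4204 were above 0 in both libraries and 5032 below 0 in both. The median log2 ratio of the list was 0.42 in cecum and 0.59 in the tumor, against -0.01 in each library over all genes tested. With all other CD8 labels together as the reference, which adds CCR7+ CD8 and CD8aa, the list median was 0.065 in cecum and 0.46 in the tumor. Il6ra, the receptor subunit for interleukin 6, was at 85.5 FPM in PD1+ CD8 against 38.4 FPM in Cytotoxic CD8 of cecum and 96.5 against 33.6 FPM in the tumor (log2 ratio 1.16, 0.86 to 1.46, and 1.52, 1.25 to 1.81). PD1+ CD8 nevertheless held only rank 10 and rank 9 of the labels for Il6ra. Cxcr5, the receptor that draws cells to B cell follicles, was at 83.3 against 41.3 FPM and 82.96 against 39.9 FPM (log2 ratio 1.01, 0.72 to 1.31, and 1.05, 0.80 to 1.32), with the highest level in Tfh-like cells, 158 and 171 FPM.

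Myb, a transcription factor needed for the stem-like pool of exhausted CD8 cells, was at 63.0 against 33.6 FPM in cecum and 63.7 against 36.8 FPM in the tumor (log2 ratio 0.91, 0.57 to 1.24, and 0.79, 0.52 to 1.07). Slamf6, a surface receptor used to mark that pool, was at 56.9 against 31.3 FPM and 49.4 against 32.0 FPM (log2 ratio 0.86, 0.52 to 1.22, and 0.63, 0.34 to 0.93). In cecum and tumor, CCR7+ CD8 had 107 and 77.7 FPM over Myb and 63.0 and 40.5 FPM over Slamf6. CD8aa had 36.2 and 36.1 FPM over Myb and 17.2 and 21.4 FPM over Slamf6. Tfh-like cells were above PD1+ CD8 for Myb (87.7 and 89.2 FPM) and Slamf6 (76.0 and 92.7 FPM). Ccr7, the lymph node homing chemokine receptor, was at 95.5 against 57.8 FPM and 84.1 against 55.4 FPM (log2 ratio 0.72 and 0.60). These 5 genes were higher in PD1+ CD8 than in Cytotoxic CD8 in each library. Tcf7, the factor that defines the stem-like pool, did not share this: its log2 ratio was 0.12 (-0.04 to 0.29) in cecum and 0.00 (-0.13 to 0.13) in the tumor. S1pr1, which lets T cells leave tissue, had log2 ratios of 0.58 (0.22 to 0.95) and 0.88 (0.58 to 1.19), just short of the fold in the cecum. Klf2, Lef1 and Bach2 lay between 0.30 and 0.59 in both libraries without being called.

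Il7r, the receptor for the survival cytokine interleukin 7, was the one gene of that list called lower. It had 19.99 FPM in PD1+ CD8 against 44.6 FPM in Cytotoxic CD8 of cecum and 25.0 against 46.9 FPM in the tumor, a log2 ratio of -1.16 (-1.58 to -0.74) and -0.91 (-1.19 to -0.61). PD1+ CD8 had the lowest Il7r level of the 16 labels of cecum and the 16th of 17 in tumor, while Th17 cells had 90.7 and 82.9 FPM. Against all other CD8 labels together Il7r was at -1.09 and -0.56, Cxcr5 at 0.54 and 0.90, and Il6ra at 0.51 and 1.27, so that each was short of the fold in 1 library and none would be called. Myb was also short of the fold in the cecum against that reference, while Slamf6 stayed past it in both libraries.

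Of the 14 inhibitory receptors and exhaustion-linked surface genes, none was called higher and 1 was lower, while 8 were above 0 and 6 below 0 in both libraries. Over all 14442 genes tested these counts were 4204 and 5032. The list median was 0.17 in cecum and 0.03 in the tumor. Entpd1, which encodes the ectonucleotidase CD39, had log2 ratios of 0.55 (0.36 to 0.74) and 0.37 (0.23 to 0.52), short of the fold, as did Pdcd1 in the tumor. Lag3 was at 0.26 and 0.04, Tigit at 0.17 and 0.04 and Ctla4 at 0.16 and 0.02. Several others leaned toward Cytotoxic CD8. Havcr2, the gene of the receptor TIM-3, had -0.47 (-0.73 to -0.22) and -0.33 (-0.52 to -0.15), Cd160 had -0.49 and -0.47, Cd200 had -0.58 and -0.62, and Cd38 had -0.65 and -0.33. Cd244a, the receptor 2B4 of NK and T cells, was the gene called lower, at 35.8 against 55.8 FPM in cecum and 33.4 against 55.9 FPM in the tumor (log2 ratio -0.64, -0.97 to -0.31, and -0.74, -0.9998 to -0.48). Its window overlaps that of Ly9, so fragments there cannot be given to 1 of these genes.

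Eomes, a T-box factor of cytotoxic and memory CD8 cells, was the 1 gene called among the 10 of the identity list. It had 82.5 FPM in PD1+ CD8 against 44.3 FPM in Cytotoxic CD8 of cecum and 84.7 against 41.5 FPM in the tumor, a log2 ratio of 0.90 (0.61 to 1.19) and 1.03 (0.78 to 1.29). PD1+ CD8 ranked first of the labels in both, followed by CCR7+ CD8 (70.1 FPM) in cecum and Innate-like T#2 (72.0 FPM) in the tumor. The thinned share of cells with a fragment over Eomes was 16.8% and 15.5% in PD1+ CD8, 9.37% and 6.44% in Cytotoxic CD8 and 3.10% and 5.41% in Mucosal Th1. Among the 20 exhaustion- and TCR-linked transcription factors 1 was higher, Maf, at 63.3 against 39.5 FPM and 61.2 against 39.7 FPM (log2 ratio 0.68, 0.36 to 0.997, and 0.63, 0.36 to 0.90), and none was lower. Maf had more in other labels, such as Tfh-like (139 and 128 FPM) and IL10+ Treg (130 and 145 FPM). The other CD8 labels had less, CCR7+ CD8 48.0 and 46.2 FPM and CD8aa 6.50 and 17.1 FPM. Nr4a1, Nr4a2 and Nr4a3, factors switched on by T cell receptor signals, lay between -0.31 and 0.16. Batf was at 0.32 and 0.04, Irf4 at -0.04 and 0.16 and Prdm1 at 0.00 and 0.08.

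The 13 cytotoxic granule genes had no call in either direction, with list medians of 0.03 in cecum and 0.14 in the tumor. Gzmb, the granzyme by whose RNA the study told the clusters apart, was at 45.2 against 51.1 FPM in cecum and 46.6 against 37.8 FPM in the tumor. Its log2 ratio had no common direction, -0.17 (-0.49 to 0.14) and 0.30 (0.02 to 0.58). Gzma was at -0.11 and -0.39 (-0.63 to -0.16 in the tumor) and Gzmk at -0.03 and 0.10. Gzmm and Prf1, which encodes perforin, leaned the other way, Gzmm at 0.57 (0.21 to 0.93) and 0.67 (0.37 to 0.98) and Prf1 at 0.48 (0.21 to 0.76) and 0.42 (0.20 to 0.64). Gzmm, Prf1, Nkg7 and Gnptab were highest in PD1+ CD8 of all labels in both libraries, 4 of the 13 genes of this list, where 1.15% of all genes tested were (166). The identity and residency lists had 2 such genes each (of 10 and 16), and 1 each was among 17 cytokine, 13 NK receptor, 4 B cell and 3 myeloid genes, so this was not particular to granule genes.

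Of 17 tested cytokine, chemokine and death ligand genes, none was higher and Csf2 was lower. Csf2, which encodes the myeloid growth factor GM-CSF, had 12 fragments in PD1+ CD8 and 44 in Cytotoxic CD8 of cecum, and 34 and 60 in tumor. The log2 ratio was -1.96 (-3.02 to -1.02) and -2.10 (-2.76 to -1.47). Of PD1+ CD8 cells 1.31% and 0.740% had a fragment over Csf2 after thinning, against 1.93% and 4.12% of Cytotoxic CD8, so both readings rested on few cells. Il21 was at -1.19 (-2.04 to -0.40) and -0.61 (-1.16 to -0.05) without being called. The genes of the inflammatory chemokines Ccl3, Ccl4 and Ccl5 and of the cytokine Tnf had no shared departure from 0 beyond counting error.

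Calls were few in the remaining lists. Of 13 NK receptor and circulating effector genes 1 was higher, Fcgr2b, an inhibitory Fc receptor also carried by some CD8 cells, with 47 against 13 fragments in cecum and 143 against 15 in tumor (log2 ratio 1.77, 0.86 to 2.78, and 1.97, 1.198 to 2.84). Klrc1, an NKG2 receptor gene, was at 0.63 and 0.47, and Zeb2, a factor of terminal effector cells, at -0.55 and -0.33. Of 16 tissue residency and homing genes 10 were below 0 in both libraries, against 5032 of all 14442 genes tested, and the medians were -0.22 and -0.13. Itgae, which encodes the integrin that holds T cells to epithelium, had -0.27 and -0.15, Rgs1 -0.37 and -0.60, and Ahr, the aryl hydrocarbon receptor, -0.45 and -0.52, none of them called. The tetraspanin gene Cd9 was higher, at 78.8 against 51.6 FPM and 83.9 against 45.3 FPM. Among 13 TCR and costimulation genes Cd28, the main costimulatory receptor, was higher, at 162 against 93.0 FPM and 155 against 90.02 FPM (log2 ratio 0.80, 0.60 to 1.002, and 0.78, 0.61 to 0.96). None of 11 TGF-beta and interferon signalling genes was called. Tgfbr2, a receptor subunit for TGF-beta, was at -0.45 and -0.59. None of the tested markers of other T cell lineages (7 of 10), B cells (4 of 6), myeloid cells (3 of 6) or epithelium (5 of 10) was called, with medians of 0.32 and 0.33 for B cells, 0.36 and 0.20 for myeloid cells and 0.09 and 0.19 for epithelium.

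**Figure D2:**
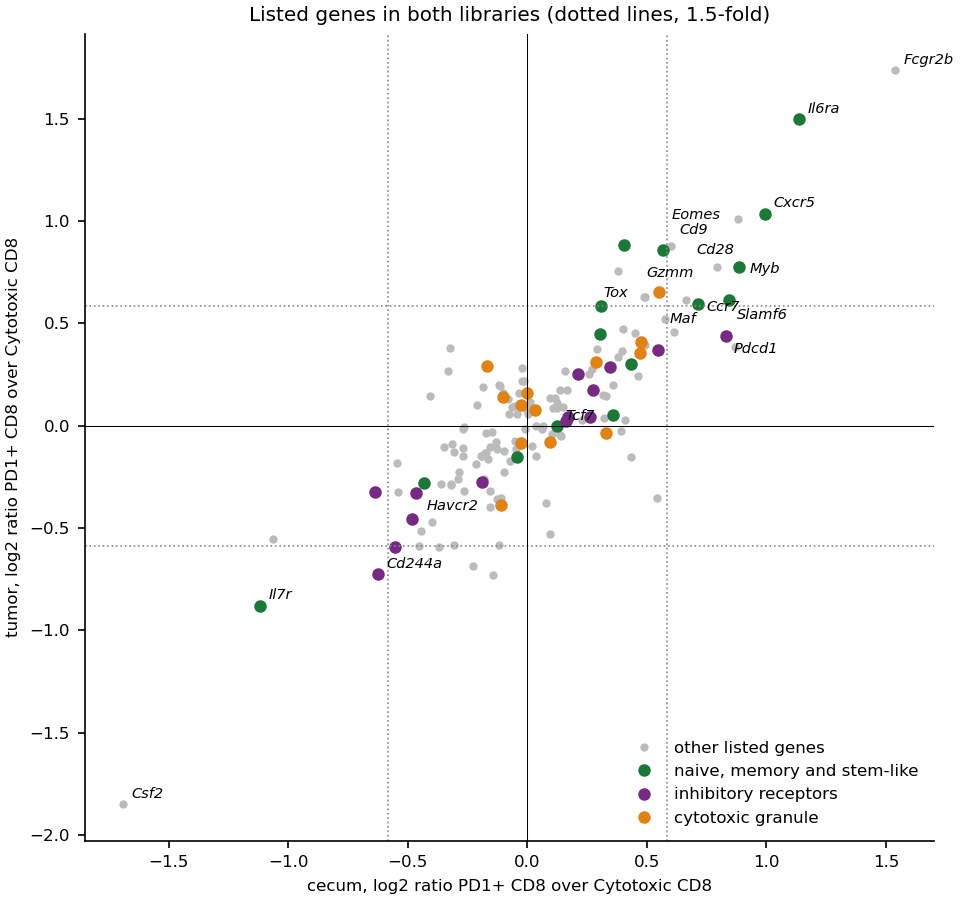
Log2 ratio of PD1+ CD8 over Cytotoxic CD8 (pseudocount 1 FPM) in the cecum (x axis) and in the tumor (y axis), with a point for each listed gene that had at least 50 fragments in each library, except 2 genes not shown, and dotted lines at 1.5-fold. Of the naive, memory and stem-like genes shown (green) 5 lie past the fold in the upper right and Il7r in the lower left, while no inhibitory receptor gene (purple) or granule gene (orange) lies past it in the upper right.

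Most of the largest differences were at genes outside the lists. Plxnc1, which encodes a semaphorin receptor, had 714 fragments in PD1+ CD8 and 191 in Cytotoxic CD8 of the cecum (198 and 56.4 FPM), and 1733 and 219 in the tumor (189 and 58.3 FPM). PD1+ CD8 was far above the reference in both, with log2 ratios of 1.81 (1.58 to 2.05) and 1.70 (1.496 to 1.91), and 27.3% and 30.0% of thinned PD1+ CD8 cells had a fragment there against 7.99% and 9.28% of Cytotoxic CD8. Dagla, which makes the endocannabinoid 2-arachidonoylglycerol, was at 69.96 against 22.4 FPM and 99.4 against 18.6 FPM (log2 ratio 1.64, 1.27 to 2.03, and 2.41, 2.06 to 2.79). Its next label was Th2 with 35.2 FPM in cecum and PD1+ CD4 with 32.1 FPM in the tumor, so it was also among the genes most set apart from every other label. The Dagla window overlaps that of Myrf and the Plxnc1 window that of Cep83. Nrp1, the coreceptor neuropilin 1, was at 55.2 against 17.7 FPM and 84.4 against 27.2 FPM (log2 ratio 1.64, 1.22 to 2.08, and 1.64, 1.34 to 1.95). Bmp6, a growth factor of the TGF-beta family, was at 40.5 against 11.8 FPM and 40.3 against 10.9 FPM, and Bend5 had 73 against 13 and 193 against 18 fragments. Steap3 and Gtf2a1l completed the highest 8 together with Fcgr2b, with log2 ratios of 2.52 and 1.78 for Steap3 and 1.89 and 1.60 for Gtf2a1l. Within 1 kb of the start the tumor ratio of these had the opposite sign, -1.28 for Steap3 and -0.28 for Gtf2a1l.

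Among the lowest genes was Mras, which encodes a small GTPase, at 10.5 FPM in PD1+ CD8 against 48.4 FPM in Cytotoxic CD8 of cecum and at 12.2 against 42.1 FPM in the tumor (log2 ratio -2.20, -2.75 to -1.68, and -1.78, -2.14 to -1.42). Heyl, a target of Notch signalling, had log2 ratios of -1.51 and -1.61, Six3 -2.62 and -1.52 and Bean1 -1.40 and -1.54. Fam124b, Fbxl21 and 1700113H08Rik were also among the lowest 8, with Csf2. Most set apart from the next label, beside Dagla, were Ndufs4 (log2 1.13 in cecum and 0.73 in the tumor over the highest other label, with the pseudocount), Plcd4 (0.91 and 0.92), Gm36375 (0.79 and 0.86), Fcgr2b (0.65 and 0.89), Lingo1 (0.58 and 0.79), Cmklr1 (0.71 and 0.54) and Pmfbp1 (0.57 and 0.64). Over Cytotoxic CD8, windows of 1 kb around the start reversed the sign of Ndufs4 (-0.16) and 1700113H08Rik (0.30) in the tumor and of Gm36375 (-0.088) in the cecum.

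The comparison was then carried to distal tiles, windows of 500 bases more than 1 kb from both ends of every annotated gene. Of 38761 tiles with at least 20 fragments over both labels in each library, 1040 were at least 2-fold higher in PD1+ CD8 in both libraries (2.68%) and 754 were lower (1.95%). The higher tiles lay within a coding gene in 55.4%, against 65.4% of the lower tiles and 65.1% of all tested, and had a median of 9.21 kb to the nearest gene end, against 10.1 kb and 6.88 kb. They were spread over 705 nearest genes. When cells with more than 3 times the median fragment count were left out, so that fewer tiles could be tested (21121), 546 were higher and 382 lower. Of the 16 tested tiles nearest to Plxnc1 11 were higher, of 12 nearest to Eomes 6, of 28 nearest to S1pr1 8, of 29 nearest to Rasa3 8 and of 26 nearest to the chemokine receptor gene Cxcr4 7, with none lower. On the other side 8 of 10 tiles nearest to Tspan9 and 6 of 8 nearest to Morc1 were lower. Of the higher tiles 17.5% were nearest to a gene called higher, where 1.74% of all tested tiles were. Since a tile within a gene adds to that gene's count, these are not separate measurements. Of the genes called higher 87 of 261 had a higher tile nearest to them (33.3%), against 684 of the 14442 genes tested (4.74%).

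Among the higher tiles, the one whose interval lay farthest from 0 in both libraries was in Pbx3 at chr2:34198501-34199000, with 27 fragments in PD1+ CD8 and 1 in Cytotoxic CD8 of cecum and 105 and 2 in tumor (log2 ratio 4.67, 2.07 to 10.02, and 4.43, 2.54 to 7.49). A tile in Dagla at chr19:10278501-10279000 had 26 and 1 fragments in cecum and 153 and 2 in tumor (4.61, 2.01 to 9.97, and 4.97, 3.09 to 8.03). A tile in Suclg2 at chr6:95712001-95712500 had 57 and 6 in cecum and 142 and 4 in tumor (3.16 and 3.86), and one in Plxnc1 at chr10:94939001-94939500 had 51 and 4 and 100 and 6 (3.58 and 2.77). These tiles were chosen for this ratio, and their few fragments in Cytotoxic CD8 describe the choice. A tile 44.5 kb from Nrp1 at chr8:128550001-128550500 had 32 and 3 fragments in cecum and 140 and 2 in tumor. The reverse held at chr13:12275001-12275500 in Actn2, with 3 fragments in PD1+ CD8 and 40 in Cytotoxic CD8 of cecum and 4 and 37 in tumor. Coordinates are of mm10, and no genome sequence was used here to print the tiles.

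Around Pdcd1, 17 distal tiles within 75 kb were tested. Of these 14 were above 0 in both libraries and none below, with medians of 1.22 in cecum and 0.30 in the tumor. The medians over all 38761 tested tiles were 0.01 and -0.005, and their share above 0 in both libraries is not given here. At Pdcd1 1 tile was called higher. That tile, 3.70 kb upstream of the start at chr1:94056001-94056500, had 52 fragments in PD1+ CD8 and 21 in Cytotoxic CD8 of cecum and 143 and 26 in tumor (log2 ratio 1.22, 0.46 to 2.03, and 1.17, 0.56 to 1.84). The tallest tiles of the Pdcd1 window lay 16.8 and 17.3 kb from the start, past the far end of the gene, in the part of the window shared with Neu4. They held 44.7 and 45.0 FPM in PD1+ CD8 of cecum and 37.3 and 42.8 FPM in the tumor, against 26.9 and 32.5 FPM and 31.7 and 36.5 FPM in Cytotoxic CD8. The Pdcd1 level given above therefore holds fragments that cannot be told apart from those of Neu4.

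Other loci were mixed, and with 2.68% of all tested tiles called higher, 1 higher tile at a locus is near that background. The counts of tiles above or below 0 stand without such a background. At Tox 2 of 18 tiles were higher, one of them in the gene at chr4:6844001-6844500 with 31 against 8 fragments in cecum and 92 against 12 in tumor (log2 ratio 1.87, 0.71 to 3.20, and 1.65, 0.78 to 2.66). At Entpd1 3 of 16 were higher and 11 were above 0 in both libraries, with medians of 0.54 and 0.52. At Ifng 1 of 22 was higher, 28.2 kb past the start at chr10:118469001-118469500, with 28 against 13 fragments and 132 against 12 (log2 ratio 1.02, 0.02 to 2.09, and 2.17, 1.32 to 3.16), although the gene window itself did not differ beyond counting error. At Tcf7 1 of 40 was higher, 16.9 kb upstream at chr11:52300001-52300500, with 33 against 14 fragments and 97 against 13. None of 25 tiles at Havcr2 was called, 13 being below 0 and 5 above 0 in both libraries, and one in the gene at chr11:46462001-46462500 had 30 against 76 fragments and 118 against 75 (-1.43 and -0.63). No tile was called at Lag3 (10 tested), Tigit (20), Tnfrsf9 (29), Cd8a (41), Nr4a2 (10), Gzmb (13) or Klrg1 (14).

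**Figure D3:**
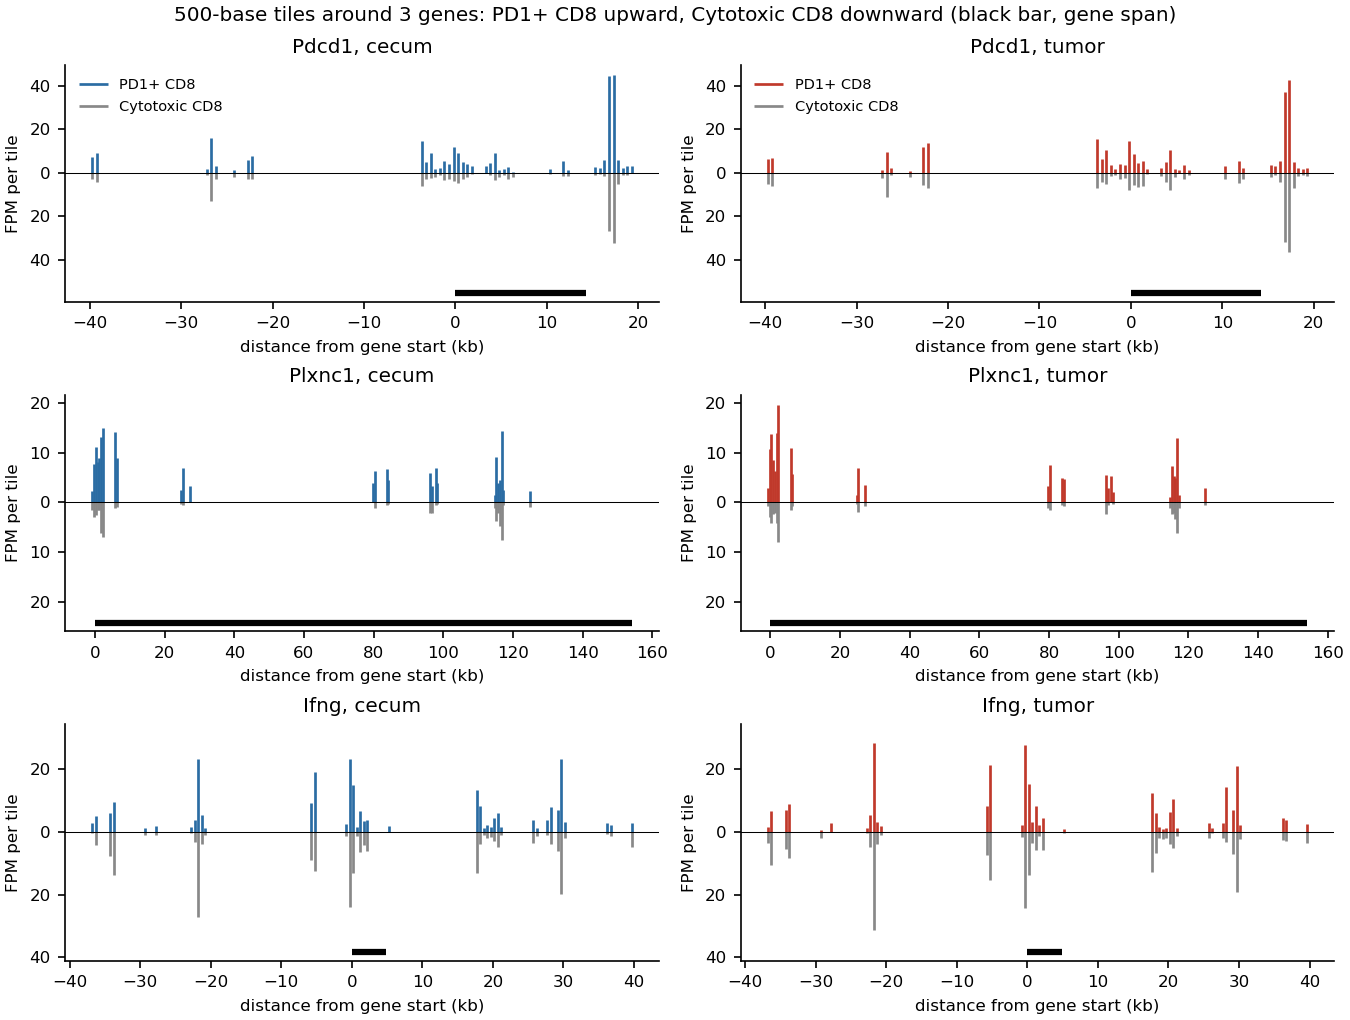
FPM per tile of 500 bases (y axis) by distance from the gene start in kb (x axis) around Pdcd1, Plxnc1 and Ifng, in the cecum (left) and the tumor (right), with PD1+ CD8 drawn upward in color and Cytotoxic CD8 downward in grey. Plxnc1 is taller in PD1+ CD8 along most of its span, the tallest Pdcd1 tiles stand past the end of the gene at up to 45.0 FPM, and at Ifng the tile 28.2 kb past the start has 14.4 FPM in PD1+ CD8 against 3.20 FPM in Cytotoxic CD8 of the tumor. In the cecum that Ifng tile has 28 against 13 fragments (log2 ratio 1.02, 0.02 to 2.09).

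Tiles chosen in one library were next read in the other, in cells the choice did not use. Of the 3101 tiles 2-fold higher in the cecum, 3069 had enough fragments in the tumor and 80.7% of them were higher there too, with a median log2 ratio of 0.66 and 33.9% past the fold. Of the 2464 lower ones 2381 had enough, and 81.2% of these were lower, with a median of -0.65. Of the 6974 higher and 4419 lower tiles chosen in the tumor, only 2698 and 2039 had enough fragments in the cecum. Of these, 84.2% were higher with a median of 0.77 and 83.4% lower with a median of -0.73. The medians in the library whose ratios were not used for the choice were below the 2-fold that chose the tiles.

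Across all labels, the tiles higher in the cecum took 1.96% of the fragments of PD1+ CD8 in the tumor, the first of 17 labels. Innate-like T#2 (1.86%) and CCR7+ CD8 (1.67%) followed, and Cytotoxic CD8 had 1.197%. The tiles higher in the tumor took 2.72% of PD1+ CD8 fragments in the cecum, the first of 16, followed by CCR7+ CD8 (2.58%) and Innate-like T#2 (2.57%), with 1.63% in Cytotoxic CD8. Both labels were thus close to PD1+ CD8 for these tiles in each library. The lower tiles took 0.891% of PD1+ CD8 fragments in the tumor and 1.18% in the cecum, 15th of the labels in both, and were highest in Cytotoxic gdT (1.77% and 2.42%) and CD8aa (1.64% and 2.33%), above Cytotoxic CD8 itself (1.49% and 1.92%).

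**Figure D4:**
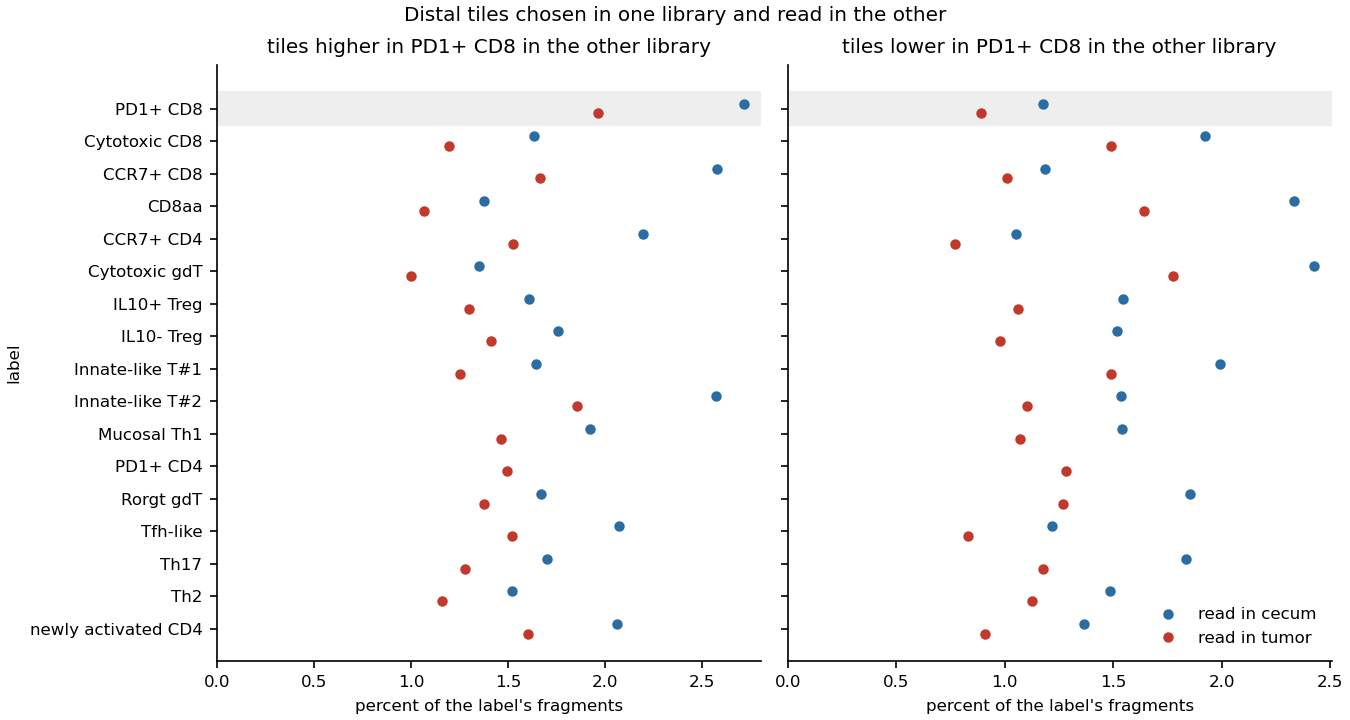
Percent of each label's fragments that fall in distal tiles chosen in the other library (x axes, from 0), with a row for each label, for tiles higher (left) and lower (right) in PD1+ CD8 than in Cytotoxic CD8; blue points were read in cecum and red points in tumor. PD1+ CD8, in the grey band, is first for the higher tiles with 2.72% and 1.96%, close to CCR7+ CD8 with 2.58% and 1.67%, and the lower tiles are highest in Cytotoxic gdT.

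The same tiles were counted in single cells thinned to 2000 fragments, as fragments in higher tiles minus fragments in lower tiles. The median PD1+ CD8 cell had a difference of 28 in the cecum, with 10 and 46 at the 10th and 90th percentiles, and 21 in the tumor (7 to 33). The median Cytotoxic CD8 cell had -6 in both (-22 to 13 and -20 to 7). CCR7+ CD8 cells had medians of 25.5 and 14, and CD8aa cells of -17 and -12. The sets are of unequal size, 6974 higher and 4419 lower tiles for cells of cecum and 3101 and 2464 for cells of tumor, so the value 0 has no meaning of its own and only labels are compared. At or below the median of Cytotoxic CD8 were 1.31% of PD1+ CD8 cells of cecum and 0.211% of those of the tumor. PD1+ CD8 was not alone in this, since the shares in CCR7+ CD8, CCR7+ CD4, Tfh-like, Innate-like T#2 and newly activated CD4 cells reached at most 10.7% (cecum) and 6.73% (tumor). Some were below PD1+ CD8: CCR7+ CD4 with 0% in both, CCR7+ CD8 with 0% in the cecum, and Tfh-like with 1.28% and 0%.

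**Figure D5:**
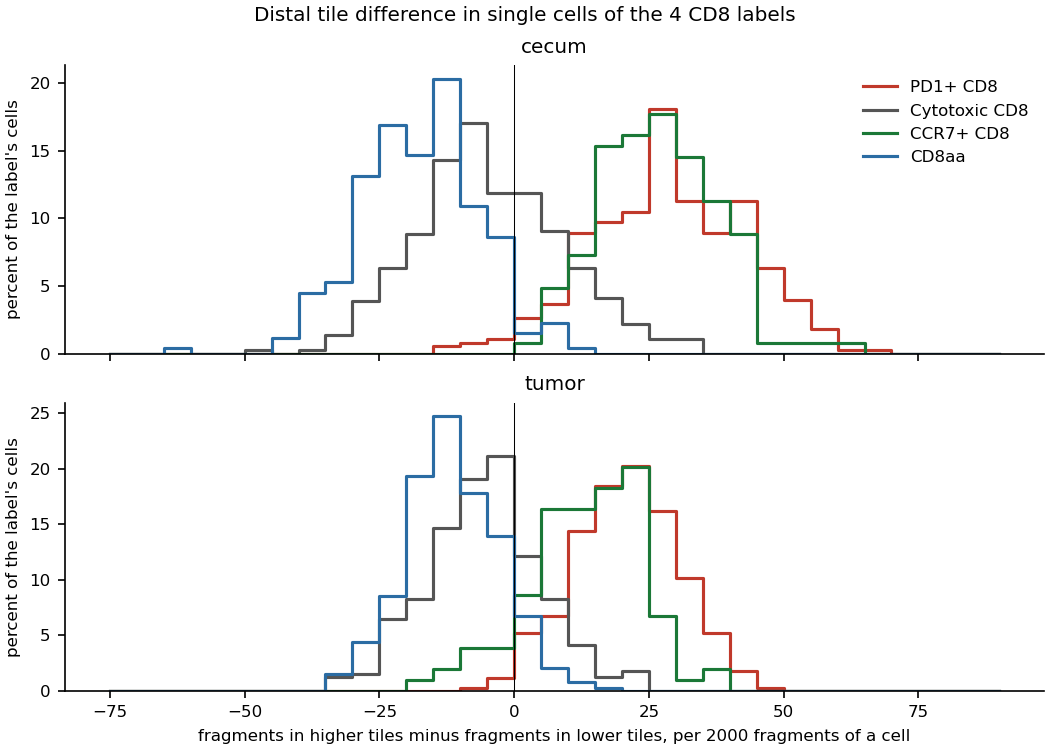
Distribution over cells of fragments in higher tiles minus fragments in lower tiles, per 2000 fragments of a cell (x axis), as percent of the cells of each of the 4 CD8 labels (y axis, from 0), in the cecum (top) and the tumor (bottom); the tiles were chosen in the other library. PD1+ CD8 cells center on 28 and 21, Cytotoxic CD8 cells on -6, CCR7+ CD8 cells on 25.5 and 14 and CD8aa cells below 0.

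The likeness of whole labels gave a different order from the chosen tiles. Those tiles were picked to differ between PD1+ CD8 and Cytotoxic CD8, so the distance of these labels there is built into the choice. With each label thinned to 426832 fragments, the label most like PD1+ CD8 in its own library across 21884 genes was Cytotoxic CD8, with r = 0.949 in cecum and 0.949 in the tumor, followed closely by Mucosal Th1 in the cecum (0.948) and by newly activated CD4 and Mucosal Th1 in the tumor (0.947 for both). Across 102995 distal tiles, all past the filter over the CD8 labels, Cytotoxic CD8 held rank 3. It was at 0.482 in the cecum, where Mucosal Th1 had 0.497, and at 0.507 in the tumor, where newly activated CD4 had 0.518. Compared across libraries, PD1+ CD8 of one tissue was most like PD1+ CD8 of the other, with r = 0.953 across genes and 0.522 across tiles. These correlations describe sparse counts at a shared depth and carry no test.

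Finally PD1+ CD8 cells of the tumor were compared with those of the cecum. Tissue and library cannot be told apart in this comparison. Of 15652 genes with enough fragments, 212 were at least 1.5-fold higher in the tumor (1.35%) and 122 lower (0.779%), and within Cytotoxic CD8 268 of 14334 were higher and 155 lower. The interval for counting error excluded 0 for 148 of the 212 and 105 of the 122. In Cytotoxic CD8 93 of the higher genes could be tested, 63 had the same sign and 19 were called higher. Of the lower genes 56 could be tested there, 38 had the same sign and 8 were called lower. The share of all genes with the same sign in both labels is not given here. With a pseudocount of 5 FPM 45 were higher and 36 lower. When scaled to fragments near gene starts 154 were higher and 187 lower, so the split between the directions depended on the scaling. Pdcd1 was at 180.2 FPM in the tumor and 165.5 FPM in the cecum, a log2 ratio of 0.12 (-0.01 to 0.26), while the same ratio in Cytotoxic CD8 was 0.52. Tox had 0.16 (0.05 to 0.27). None of the 14 inhibitory receptor genes, the 20 transcription factors, the 13 granule genes, the 16 naive, memory and stem-like genes or the 16 residency genes was called in either direction, and every list median lay between -0.06 and 0.10.

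Among the listed genes, Xcl1, the chemokine that attracts cross-presenting dendritic cells, was lower in the tumor, at 20.3 FPM against 33.6 FPM in the cecum (log2 ratio -0.72, -1.06 to -0.38, and -0.11 in Cytotoxic CD8). Cx3cr1, the fractalkine receptor of circulating effector cells, was higher, at 75.5 against 49.7 FPM (0.60, 0.36 to 0.85). The ratio was 0.64 in Cytotoxic CD8. Of the tested markers of other cell types, 1 of 8 for other T cell lineages was higher, and of 5 myeloid markers 1 was higher and 1 lower. Il4, a cytokine gene of type 2 helper cells, had 23 fragments in cecum and 98 in tumor (0.75, 0.08 to 1.47, and 0.81 in Cytotoxic CD8). Within 1 kb of the start Il4 turned sign, to -0.34. The part of other cells in these ratios was not tested. Nrp1 was also higher, 0.61 (0.38 to 0.84) in PD1+ CD8 and 0.62 in Cytotoxic CD8. Dagla had 0.51 (0.30 to 0.71) in PD1+ CD8 and -0.27 in Cytotoxic CD8, without being called.

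Most genes furthest apart between the tissues had few fragments. Sema6d, a semaphorin gene, had 75 fragments in cecum and 403 in tumor, a log2 ratio of 1.081 (0.72 to 1.46) in PD1+ CD8 and 1.18 in Cytotoxic CD8, from 11.4% and 22.2% of PD1+ CD8 cells. Epha3, an ephrin receptor gene, had 25 and 162 fragments (1.35, 0.74 to 2.02), from 22 and 117 cells, while Cytotoxic CD8 had -0.85. Enpp2, which encodes the lysophosphatidic acid producing enzyme autotaxin, had 13 and 109 (1.72, 0.89 to 2.68), Fzd2, a Wnt receptor gene, 4 and 57 (2.49, 1.05 to 4.41), Ifi211 18 and 116 (1.34, 0.62 to 2.15), and Gria1 11 and 78 (1.48, 0.56 to 2.54). Lower in the tumor were Pla2g4a, a phospholipase gene, with 47 fragments in cecum and 24 in tumor from 18 and 19 cells (-2.31, -3.09 to -1.58), Hrh1, a histamine receptor gene, with 57 and 59 (-1.29, -1.85 to -0.74), and Gm43707, Hoxd11, Dusp27 and Prss42. The fragments of Pla2g4a in the cecum thus came from few cells. Within 1 kb of the start the ratio of Sema6d was -1.34 and that of Enpp2 -0.12.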

How the data were processed

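T cells sorted from AKP tumor and neighbouring cecum, taken 4 weeks after transplantation, were measured with a 10x multiome assay, 1 ATAC and 1 RNA library per tissue, and the RNA was not analysed here. The authors ran Cell Ranger ARC 2.0.0 with the mm10 reference, and the deposited files hold a raw count of read pairs for each unique fragment and barcode, without normalization. Fragment ends are shifted for the transposase cut in that pipeline. RNA clusters of the same nuclei gave the labels, after the authors had filtered by mitochondrial share, numbers of genes, molecules and fragments, and enrichment at gene starts. Label and library of a cell came from the deposited metadata. The libraries held 66466111 (cecum) and 96747563 (tumor) fragments, of which 66.2% and 64.3% belonged to labelled cells. Doublets were not called here, and an alternative left out cells above 3 times the library's median fragment count.

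Each fragment was counted once in a window that held either of its ends, summed over cells with the same label and expressed per 1000000 (FPM). Gene spans came from RefSeq (GRCm38.p6, the build of mm10) for 21884 genes, and strand from the promoter table for 17491. ATAC fragments carry no strand, so overlapping windows share them. Calls used log2 ratios with a pseudocount of 1 FPM, which understates changes of low genes. Values of single genes and tiles are ratios of counts with exact conditional 95% intervals, and shares have Clopper-Pearson intervals, which cover counting error only. Since each tissue had 1 library, no difference was tested and no p-value is given. A call between labels needed 1.5-fold (genes) or 2-fold (tiles) in the same direction in both libraries. A call between tissues needed 1.5-fold in the single ratio of tumor over cecum.

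Of 180 listed genes 178 were in the gene table. Named genes were the listed ones, the 8 highest and 8 lowest by the smaller ratio of the 2 libraries, the 8 highest over the next label, and the 6 highest and 6 lowest between tissues by the interval bound nearest 0. Tiles were named by that bound, 8 highest and 8 lowest genome-wide and 3 near each of several loci within 75 kb, and some genes, alleles and tiles are not reported here. Members and lists were chosen with earlier results of these data known. The counting steps were tested on simulated fragments, and the gene calls between labels on simulated counts. Those counts held Poisson error only and changes of 3-fold. They do not cover spread between cells or libraries, or changes near 1.5-fold. Tile calls and tissue calls were not simulated. Computations used Python 3.11.15 (numpy 2.4.6, scipy 1.17.1, pandas 2.3.3, numba 0.67.0).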

Additional observations from a re-analysis of the deposited data

Results flagged for a closer look

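In 6 cases the effect of a gene had opposite signs in the groups compared, with both intervals away from 0, among 188 named genes with a ratio in both libraries and 181 with a tumor over cecum ratio in both labels. None of these differences was tested, since each rests on 1 library per tissue. Cd5, an inhibitory coreceptor of T cells, had a log2 ratio of PD1+ CD8 over Cytotoxic CD8 of -0.33 (-0.54 to -0.12) in cecum and 0.38 (0.19 to 0.57) in the tumor. Tnfrsf4, the gene of the costimulatory receptor OX40, went the other way, 0.57 (0.11 to 1.03) in cecum and -0.37 (-0.71 to -0.02) in the tumor.

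Between tumor and cecum, Epha3 had a log2 ratio of 1.35 (0.74 to 2.02) in PD1+ CD8 and -0.85 (-1.65 to -0.08) in Cytotoxic CD8. Epha3 was named for this ratio in PD1+ CD8, so its interval there lay away from 0 by choice. Irf1, an interferon-responsive factor, had 0.23 (0.05 to 0.41) and -0.32 (-0.53 to -0.12). Ndufs4, a subunit of respiratory complex I, had -0.29 (-0.47 to -0.10) and 0.47 (0.13 to 0.82). Tnfrsf4 had -0.39 (-0.73 to -0.04) in PD1+ CD8 and 0.55 (0.10 to 1.004) in Cytotoxic CD8, the same fragments as in the comparison of the labels.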

How the results depend on the processing

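No paired analysis was possible because each tissue had 1 library, and for the same reason no replicate could be left out. The causes of the changes below were not tested beyond the construction of each setting. Among the 4 CD8 labels alone PD1+ CD8 was 32.0% in cecum and 52.3% in the tumor. The 261 higher genes became 87 with windows within 1 kb of the start, 152 with a pseudocount of 5 FPM, 481 with no minimum and 93 with a minimum of 200 fragments, and the 101 lower genes became 43, 181 with no minimum, 49 with the minimum of 200 and 159 against all other CD8 labels. The genes tested numbered 14442 in the main setting and with the larger pseudocount, 10189 with start windows and 21884 with no minimum. At the minimum of 200 fragments 10991 were tested, and 15116 against all other CD8 labels. The correlation of the libraries was 0.409 with start windows, 0.343 as a mean over cells, 0.307 with no minimum, 0.599 with the minimum of 200 and 0.667 against all other CD8 labels. Over the settings, 63 of 278 list medians shifted by more than 0.1 and 38 turned sign, and between the tissues 8 of 125 shifted and 28 turned sign. That of the naive, memory and stem-like genes stayed above 0, between 0.065 and 0.58 in cecum and 0.45 and 0.70 in tumor. In 8 cases the shift passed even the interval of a typical single gene. With start windows these were TCR and costimulation genes in the tumor (0.15), other T lineages in the cecum (-0.40), myeloid markers in the tumor (0.51) and epithelial markers (-0.83 and -0.46, a turn of sign). The others were granule genes in the cecum as a mean over cells (0.32), TGF-beta and interferon genes in the tumor at the minimum of 200 (-0.11) and the naive, memory and stem-like genes of the cecum against all other CD8 labels (0.065).

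Between the tissues the 212 higher genes became 396 without cells above 3 times the median, 699 as a mean over cells, 45 with a pseudocount of 5 FPM, 673 with no minimum and 35 with the minimum of 200. The 122 lower genes became 51 with start windows, 187 when scaled to fragments near starts, 459, 36, 602 and 9 under the last 4 of those settings. Tested here were 14764 genes without those cells, 11093 with start windows, 21884 with no minimum, 12766 at the minimum of 200 and 15652 otherwise. The 1040 higher and 754 lower tiles became 546 and 382 without cells above 3 times the median, 2948 and 2133 at a minimum of 10 fragments, 178 and 147 at 50, 499 and 383 more than 10 kb from gene ends, and 304 and 159 at 3-fold, and 2277 tiles were lower against all other CD8 labels. The tiles tested numbered 38761 in the main setting and at 3-fold. In the other settings 21121, 74078, 13942 and 15188 were tested in that order, and 55894 against all other CD8 labels. Under the 4 settings tried for tiles read in the other library, the medians of higher tiles lay between 0.62 and 1.07 in tumor and 0.77 and 1.16 in cecum, those of lower tiles between -0.94 and -0.55 and between -1.24 and -0.74, and PD1+ CD8 held the first rank for the higher tiles in each. For the lower tiles its rank became 13 in the tumor and 14 in the cecum without cells above 3 times the median, and 13 in the cecum at 50 fragments.

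Marker ranks also moved. Cd8a was 2 in the cecum with at least 1000 fragments per cell, with start windows and over the span alone, and 3 in the tumor with start windows. Pdcd1 was 6 in the cecum without cells above 3 times the median and over the span, 2 with start windows, and 3 and 7 in the tumor with start windows and over the span. Ifng was 3 and 2 in the cecum without those cells and with start windows, and 2 in the tumor over the span. Tox was 8 in the cecum without those cells and over the span, 13 with start windows, and 8 in the tumor with start windows. With all fragments in place of thinned ones Cytotoxic CD8 ranked 2 in the cecum and 1 in the tumor by likeness over tiles, and 52.9% and 57.9% of PD1+ CD8 cells had a fragment over Pdcd1.

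Ratios of named genes over Cytotoxic CD8 were set beside the main setting, with an entry for each gene, library and other setting. Of these entries 2481 kept within counting error, 441 moved and 5 reversed. Reversal was counted only for called genes, so a change of sign in any other gene is among the kept or moved entries. The 5 were all with windows within 1 kb of the start: 1700113H08Rik 0.30, Gtf2a1l -0.28, Ndufs4 -0.16 and Steap3 -1.28 in the tumor and Gm36375 -0.088 in the cecum. Between tissues 4 entries of called genes reversed, with that window: Adgre1 0.24, Enpp2 -0.12, Il4 -0.34 and Sema6d -1.34. Genes near the minimum of 50 fragments have wide intervals, which depth limits.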
